A study of Homo sapiens with 4 samples.

Results

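Internal transcribed spacer 2 (ITS2) is the stretch between 5.8S and 28S rRNA in the long precursor from which 18S, 5.8S and 28S rRNA are cut. It was taken as nt 6758 to 7924 of the precursor sequence RNA45SN5, which is all 1167 positions between the annotated ends of 5.8S and 28S and a small part of the 15984 rRNA positions with a depth. RNA that came down with Flag-tagged SIRT7, a nucleolar NAD-dependent deacylase, was sequenced from HEK293T cells at passages 10 to 15 that stably overexpressed the tagged protein; HEK293T is an established line of human embryonic kidney origin. The cytosolic and the nuclear fraction gave 2 libraries each, every one from Flag-SIRT7 cells and an anti-Flag pull-down. The fraction was the one difference between the groups that the labels give. Untagged cells, mock pull-downs and input RNA were not analysed here, and the values below are therefore recovered RNA rather than enrichment. The labels number the libraries without naming separate cultures. A p-value here therefore rests only on the spread among these libraries, in the limma fits pooled over stretches of rRNA, and that spread may be technical.

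ITS2 never becomes part of a ribosome. In human cells the endonuclease LAS1L cuts within it, which parts a 5.8S precursor with a 3' tail of ITS2 from a 28S precursor with a 5' leader of ITS2. The RNA exosome then shortens the tail from its 3' end, and the exonuclease XRN2 trims the leader from its 5' end. Depth over ITS2 can thus come from the uncut precursor or from either of these pieces, and depth alone does not tell them apart.

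The sequence was rich in G and C. It held 42.9% C, 40.2% G, 11.8% T and 5.06% A, so that 83.1% was G or C, compared with 57.3% in 5.8S and 69.4% in 28S. RefSeq (GRCh38.p14) annotates RNA45SN5 on a scaffold without a chromosome and lists 5 copies of the precursor in which the gap between 5.8S and 28S spans 1160 to 1171 nt. Reads from all copies were placed on 1 sequence, and the depth does not separate them. The sources used here do not say how strand was handled, so reads antisense to the precursor cannot be told apart.

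Below are the 3 stretches on which the results turn, copied from the base column of the deposited table in the sense of the precursor, 5' to 3', with nt counted from the start of ITS2. The first is nt 1 to 200 (precursor nt 6758 to 6957), which held most of the depth. Its capitals mark nt 33 to 130, where both nuclear libraries stood above 50% of their peak. The second is nt 698 to 913 (precursor nt 7455 to 7670), the longest run under a depth of 10 in all 4 libraries. The third is nt 979 to 1167 (precursor nt 7736 to 7924), which ends at 28S. Its capitals mark nt 979 to 1085, where both nuclear libraries were above both cytosolic ones.
Start of ITS2: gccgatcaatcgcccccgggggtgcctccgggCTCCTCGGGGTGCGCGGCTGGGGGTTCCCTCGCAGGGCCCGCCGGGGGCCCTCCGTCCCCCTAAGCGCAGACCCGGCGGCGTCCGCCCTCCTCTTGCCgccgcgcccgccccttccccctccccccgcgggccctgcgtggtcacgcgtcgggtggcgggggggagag
Thin middle of ITS2: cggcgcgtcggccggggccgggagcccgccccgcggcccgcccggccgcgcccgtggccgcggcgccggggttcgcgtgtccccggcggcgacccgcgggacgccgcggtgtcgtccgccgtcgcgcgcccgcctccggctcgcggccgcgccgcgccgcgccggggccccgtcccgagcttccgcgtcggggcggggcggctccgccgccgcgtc
End of ITS2: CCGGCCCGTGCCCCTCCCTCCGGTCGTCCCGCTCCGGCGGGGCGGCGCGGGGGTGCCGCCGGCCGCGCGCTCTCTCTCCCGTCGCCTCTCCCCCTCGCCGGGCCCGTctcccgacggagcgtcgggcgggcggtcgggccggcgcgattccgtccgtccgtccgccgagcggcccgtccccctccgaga

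The start differed little in composition from the remainder, with 81% G+C over nt 1 to 200 and 83.6% over nt 201 to 1167. The longest run of pyrimidines in ITS2, 18 nt at nt 141 to 158, lay just behind the capitals of the first stretch. The thin middle was 89.8% G+C and held 4 A in its 216 nt. Across the 12 windows of ITS2, which had 73% to 91% G+C, the G+C content and log2 relative depth had a Pearson r of -0.67. This is a description over 12 neighbouring windows of the same molecules and libraries, and the part of base composition in the depth was not tested.

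Depth is the number of reads over a position, and relative depth is that number divided by the mean over all listed positions of the same library. These means lay between 189023 and 211717 reads. Relative depth is a share of rRNA reads and not an amount of RNA. The fractions also differed in mitochondrial rRNA, whose 12S took up 1.25% of nuclear and 0.0213% of cytosolic depth. Scaling to the precursor alone, without mitochondrial positions, left the log2 difference of ITS2 at 1.69, beside 1.67 on all positions.

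ITS2 had a mean depth of 320.5 and 364.3 reads in nuclear replicates 1 and 2, against 100.2 and 118.2 in cytosolic replicates 1 and 2; values of a fraction are given below in this order of replicates. Both nuclear libraries were above both cytosolic ones. Its share of the summed depth was 0.0126% ± 0.00213 for nuclear and 0.00394% ± 0.000598 for cytosolic libraries (SD, n = 2), 3.18-fold higher in the former (95% interval 2.16 to 4.67, limma over 10 rRNA regions, adjusted p = 0.00334). The exact permutation test gave p = 0.333, its lowest possible value with 2 libraries a fraction. The median position told less, with nuclear depths of 60 and 61 and cytosolic depths of 26 and 35. Without the first 200 nt the log2 difference was 0.35 and did not pass (adjusted p = 0.209 in limma).

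The depth was uneven along ITS2, and much of its outline was alike in the 4 libraries. The fractions differed near both ends. Depth was highest at nt 86 and 85 in the nuclear libraries and at nt 1 in the cytosolic ones. In each library it stood highest behind 5.8S and came down to 26.6 to 44 reads around nt 295.5. A second mound reached 172 to 249 reads around nt 385.5, and depth then dropped to 0 to 4 reads around nt 535.5. A smaller mound behind it had 23.6 to 32.3 reads around nt 635.5. Depth was under 10 from nt 698 to 913 and was higher again toward 28S. Nuclear depth was 99.5 and 89.9 reads around nt 1035.5 but 53.8 and 63.3 around nt 1085.5, a small mound. Cytosolic depth rose between the same places, from 28.5 and 37.4 to 46.9 and 49.2. Across the 1167 positions the Pearson r of log2(depth + 1) was 0.97 between the cytosolic libraries, 0.99 between the nuclear ones and 0.94 to 0.96 between a cytosolic and a nuclear library. Neighbouring positions share reads, and the libraries share the reference sequence and its base composition, so these values describe the likeness of the profiles and carry no p.

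**Figure D1:**
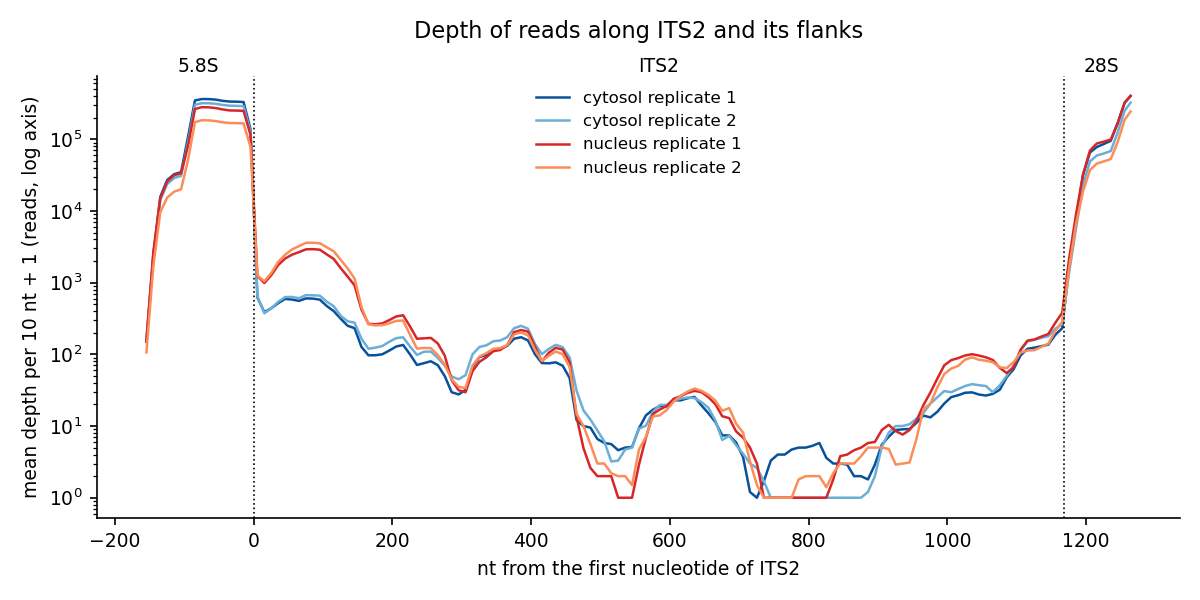
Mean depth of reads per 10 nt, plus 1, on a log axis against the distance from the first nucleotide of ITS2, with 1 line for each of the 4 libraries and dotted lines at the ends of 5.8S and 28S. The nuclear lines lie above the cytosolic ones over the first 281 nt, the 4 lines meet around nt 300 to 460, and all are under 10 reads from nt 698 to 913.

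Of the 12 windows of 100 nt (the last has 67), 9 reached a mean of 10 reads in 2 or more libraries and were tested with all other rRNA windows. In limma, 4 of the 9 were higher in the nucleus, 0 were lower and 5 did not pass at an adjusted p of 0.05; 4 also had an unadjusted p under 0.05. Among all 137 tested windows, 40.9% were higher and 19.7% lower, so the share of ITS2 windows that rose was close to that of the whole table. The median log2 difference was 0.47 over the 9 windows and 0.14 over all 137. The fit took each window's variance wholly from the trend with mean depth. The spread of the libraries at a single window thus did not set its p or interval. For the 4 called windows the adjusted p without that trend is given too. With a pseudocount of 0.01, above the depth of most of ITS2, the same 4 windows passed but their log2 differences shrank to 0.75, 0.47, 0.045 and 0.030. Adjacent windows share reads that cross their border and are not independent.

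**Figure D2:**
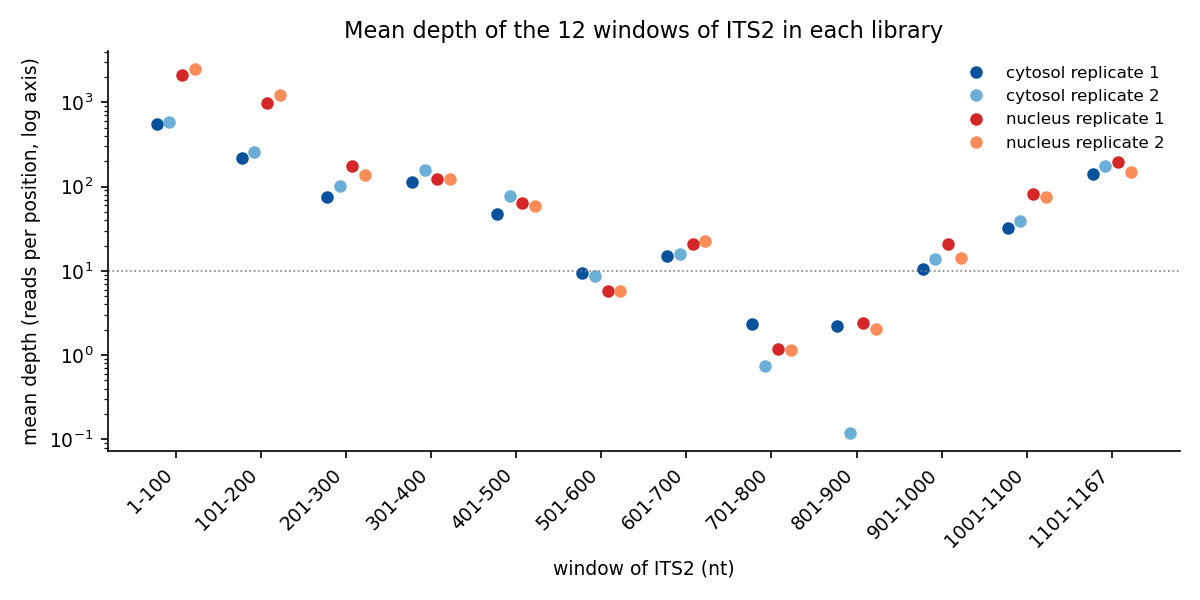
Mean depth of the 12 windows of ITS2 on a log axis, 1 point per library, with a dotted line at the minimum of 10 reads. At nt 1 to 100 the nuclear points are at 2128 and 2495 reads and the cytosolic ones at 547 and 585, while at nt 301 to 400 all 4 lie between 114 and 159.

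The first 100 nt, which a 5.8S precursor would carry as the start of its tail, had mean nuclear depths of 2128 and 2495 reads, against cytosolic depths of 547 and 585. The lower nuclear library was well above the higher cytosolic one. Nuclear relative depth was 0.0116 ± 0.00223 and cytosolic relative depth 0.00280 ± 0.000233 (SD, n = 2), 4.16 times higher in the nucleus. The log2 difference was 2.04 (SE 0.36), with an adjusted p of 1.5e-07 in limma and 0.00145 without the trend.

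At nt 101 to 200 the nuclear depths were 985 and 1215 and the cytosolic ones 219 and 260, again without overlap. Relative depth was 4.67 times higher in the nucleus, the largest ratio among the 9 tested windows. The log2 difference was 2.20 (SE 0.36), with an adjusted p of 1.1e-08 in limma and 0.00224 without the trend. Both of these windows stayed past the threshold under every alternative that was run with the same windows.

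The next window, nt 201 to 300, had 174 and 138 nuclear reads against 75.8 and 103 cytosolic ones. The fractions did not overlap in relative depth, which was 1.75 times higher in the nucleus. The log2 difference of 0.81 (SE 0.34) had an adjusted p of 0.0272 in limma and 0.0415 without the trend. This call ended without cytosolic replicate 1 (0.56, adjusted p = 0.266), without nuclear replicate 1 (0.73, adjusted p = 0.169) and without nuclear replicate 2 (0.90, adjusted p = 0.128), with the replicate number as a block (adjusted p = 0.0997), with the scaling by median of ratios (0.61, adjusted p = 0.0731), with window medians (0.72, adjusted p = 0.0608) and without the filter on depth (adjusted p = 0.0524).

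Behind the start the fractions met. At nt 301 to 400 the nuclear depths were 124 and 124 and the cytosolic ones 114 and 159, and both nuclear libraries fell between the cytosolic ones. The log2 difference was -0.10 (95% interval -0.77 to 0.57, adjusted p = 0.820 in limma). At nt 401 to 500 the nuclear depths were 64.3 and 59.2 against 47.3 and 77.0, with a log2 difference of 0.05 (95% interval -0.59 to 0.68, adjusted p = 0.904). The window means were above 40 reads in each library, although depth within nt 401 to 500 dropped to 1 to 7.7 reads around nt 495.5. The intervals bound how large a difference could have gone unseen only as far as the variance of the trend holds for these windows.

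In the middle of ITS2 there was little to compare. At nt 501 to 600 the nuclear depths were 5.75 and 5.70 and the cytosolic ones 9.43 and 8.68, below the minimum in each library. The window was not tested in the main fit. Without the filter on depth its log2 difference was -0.50 and did not pass (adjusted p = 0.0731 in limma). At nt 601 to 700 the nuclear depths were 21.0 and 22.8 against cytosolic depths of 15.2 and 15.7. The libraries did not overlap, but the log2 difference of 0.47 did not pass (95% interval -0.11 to 1.04, adjusted p = 0.156 in limma). With windows of 50 nt, nt 651 to 700 passed (0.81, adjusted p = 0.0056 in limma) and nt 601 to 650 did not (0.29, adjusted p = 0.387). At nt 651 to 700 the nuclear depths were 15.1 and 17.96, but the cytosolic ones, 8.44 and 8.82, were below the minimum. That window was thus tested only because of its nuclear depth, the side on which it was higher, and its p is not read as a result. The windows at nt 701 to 800 and nt 801 to 900 had means of 0.12 to 2.40 reads and were not tested. Nuclear depth was 0 at 136 and 69 positions of ITS2 and cytosolic depth at 27 and 151, and depth was under 10 in all 4 libraries at 315 positions.

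Toward 28S 1 further window rose. At nt 901 to 1000 the nuclear depths were 21.1 and 14.1 and the cytosolic ones 10.4 and 13.8. In relative depth the fractions did not overlap, though the nearest libraries were close, at 0.0000746 nuclear and 0.0000700 cytosolic. The log2 difference of 0.47 did not pass (95% interval -0.09 to 1.04, adjusted p = 0.145 in limma). With windows of 50 nt, nt 951 to 1000 within this window passed (0.77, adjusted p = 0.013 in limma). At nt 1001 to 1100 the nuclear depths were 81.5 and 74.9 against cytosolic depths of 32.5 and 38.6, with no overlap. Relative depth was 2.22 times higher in the nucleus, and the log2 difference of 1.11 (SE 0.32) had an adjusted p of 0.00109 in limma and 0.00610 without the trend. The call ended without nuclear replicate 1 (1.13, adjusted p = 0.0527) or nuclear replicate 2 (1.09, adjusted p = 0.0575).

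The last 67 nt, the end of the leader that a 28S precursor would carry, did not pass the test. At nt 1101 to 1167 the nuclear depths were 197 and 148 and the cytosolic ones 140.3 and 175, and the fractions overlapped. The log2 difference was 0.14 (95% interval -0.54 to 0.82, adjusted p = 0.753 in limma). This window ranked after nt 1 to 100 and nt 101 to 200 by relative depth in both fractions. In the nucleus it had 0.000858 ± 0.000106, against 0.000776 ± 0.0000640 at nt 201 to 300 (SD, n = 2). The last window was the deeper one in both nuclear libraries, at 0.000933 and 0.000783 against 0.000821 and 0.000730. This order was not tested.

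**Figure D3:**
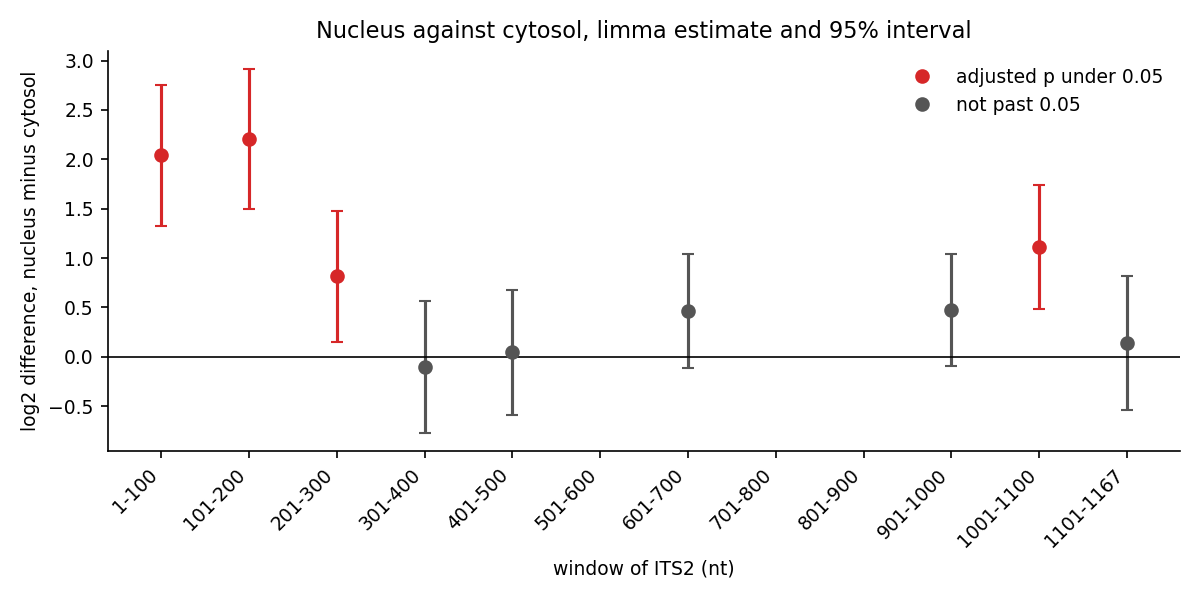
Log2 difference in relative depth, nucleus minus cytosol, with its 95% interval from limma for the 9 tested windows of ITS2; the 3 windows with no point were too thin to test. The 4 red points, at nt 1 to 300 and nt 1001 to 1100, passed an adjusted p of 0.05, and the intervals of the other 5 include 0.

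Position by position, both nuclear libraries were above both cytosolic ones in relative depth at 584 of the 1167 positions, or 50.04%, against 44% of all listed positions. They were below at 146, or 12.5%, against 32.2% of all listed positions. The scaling moved these counts, to 510 above and 213 below with the median of ratios and to 627 and 107 with scaling to the precursor after ITS2. A change of scaling moves every listed position. The shares of all listed positions under these scalings were not computed, so the moved counts are not read as a result about ITS2. All of nt 1 to 200 was above under each of the 4 scalings. The longest unbroken run above was nt 1 to 281, where relative depth was 4.08 times higher in the nucleus. The next were nt 610 to 716, at 1.52 times, and nt 979 to 1085, at 2.54 times. The former was thin, with mean depths of 18.5 and 20.4 nuclear and 12.7 and 13.3 cytosolic reads. From nt 698 on it was under 10 in all 4 libraries. The longest run below, nt 517 to 572, had mean nuclear depths of 1.89 and 2.68 and cytosolic ones of 6.80 and 5.48, too thin to read as a difference.

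The nuclear depth at the start formed a mound that began behind the end of 5.8S. Inside 5.8S the depth dropped before the annotated end, from 46079 and 31310 nuclear reads and 36815 and 45917 cytosolic reads at its third-last nucleotide to 1805 and 1744 and 963 and 1058 at its last. At nt 1 of ITS2 1713 and 1678 nuclear and 817 and 937 cytosolic reads were left. That was 1.11% and 1.66% of the mean nuclear depth over 5.8S and 0.409% and 0.536% of the cytosolic one. The nuclear percentages were above the cytosolic ones without overlap.

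From nt 1 the depth first dropped, to a low of 319 and 306 at nt 16 in the cytosol, 875 at nt 16 in nuclear replicate 1 and 923 at nt 14 in nuclear replicate 2. It then climbed in each library, but further in the nucleus. Nuclear depth peaked at 2937 reads (nt 86) and 3609 reads (nt 85), which was 3.36 and 3.91 times the low. Cytosolic depth behind nt 25 peaked at 632 reads (nt 51) and 674 reads (nt 77), 1.98 and 2.20 times the low. The highest cytosolic depth in all of ITS2 was at nt 1 instead, next to 5.8S.

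The mound had edges at nearly the same places in the nuclear replicates. Depth was at least 50% of the peak from nt 33 to 130 in replicate 1 and from nt 33 to 131 in replicate 2, the stretch in capitals above. By nt 200 it was down to 321 and 284 reads, 9.15 and 12.7 times below the peak. In the cytosol the peak was 5.27 and 4.19 times the depth at nt 200. The ratio of nuclear over cytosolic relative depth was highest on the far side of the mound among the positions listed here, going from 1.96 at nt 1 and 2.09 at nt 10 to 4.04 at nt 50, 5.19 at nt 75 and 5.77 at nt 125, and back to 2.17 at nt 200.

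**Figure D4:**
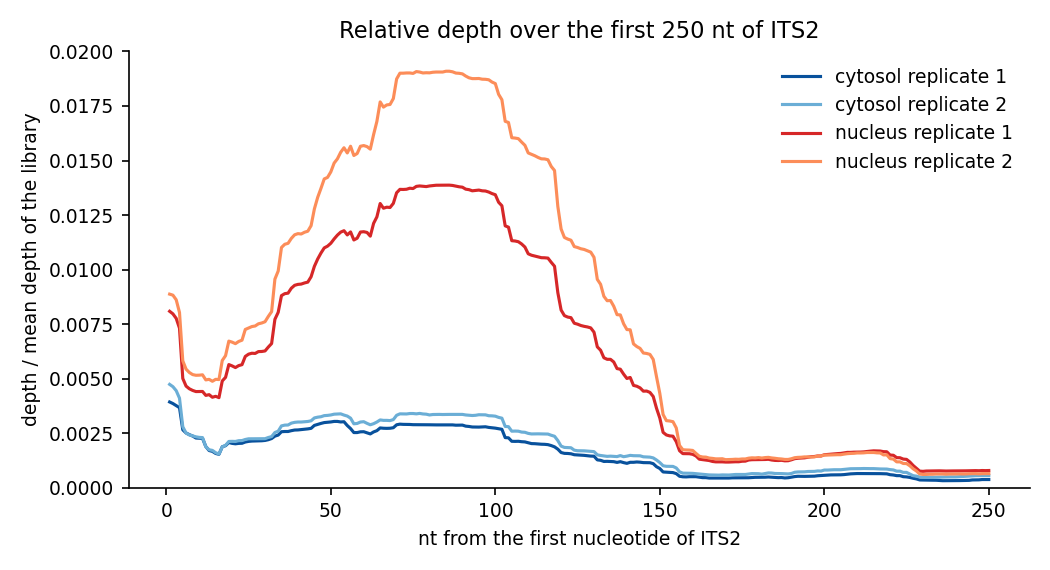
Depth divided by the mean depth of the library at each of the first 250 nt of ITS2, with 1 line per library. The nuclear lines peak at nt 85 and 86, and the cytosolic lines form a lower mound with peaks at nt 51 and 77 and step down with the nuclear ones before nt 160.

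At the other junction the depth rose over the last 67 nt of ITS2, behind the small nuclear mound around nt 1035.5. Nuclear depth was 374 and 284 and cytosolic depth 220 and 266 at the last nucleotide of ITS2, and 403 and 307 against 243 and 272 at the first of 28S. At the tenth nucleotide of 28S they were 2306 and 1713 against 1738 and 1474, so depth rose behind the annotated start in all 4 libraries. The last nucleotide of ITS2 had 0.321% and 0.430% of the mean nuclear depth over the first 100 nt of 28S and 0.193% and 0.306% of the cytosolic one. These values were adjacent, and the nuclear pair lay only just above. The ratio of relative depth across this junction was 1.36 at the last nucleotide of ITS2 and 1.39 at the first of 28S, against 0.98 at 50 nt before 28S.

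Steps of depth are the change between the 10 nt before and the 10 nt after a place. They were picked by their mean over the 4 libraries, a choice that favours steps the libraries share. No step was picked in 1 library and checked in another. The steepest fall lay between nt 459 and 460. Mean depth there went from 85.2 to 13.8 and from 73.2 to 14.6 nuclear reads and from 50.1 to 12.3 and from 96.5 to 32.9 cytosolic ones, which are log2 steps of -2.54, -2.25, -1.94 and -1.52. The next fall, between nt 154 and 155, closed the mound at the start, from 719 to 326 and 875 to 330.0 nuclear reads and from 192.5 to 107 and 237 to 135 cytosolic ones. It lay inside the 18 nt of pyrimidines at nt 141 to 158. A further fall at nt 404 had log2 steps of -1.05, -0.87, -0.70 and -0.93 in the same order of libraries.

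The steepest rise lay between nt 311 and 312, with log2 steps of 0.995, 1.05, 1.07 and 0.98 in that order, and was thus nearly equal in the 4 libraries. The other named rises, at nt 569 and nt 956, had mean depths of 2.70 to 16 reads on either side and steps from 0.27 to 1.96. They rest on few reads. With 20 nt on each side in place of 10, 5 of the 6 places were found again within 10 nt. The 20 nt around the rise and the 3 falls are printed here to show what lay at the steps, with the bases behind the step in capitals.
Rise at nt 311 (precursor nt 7059 to 7078): cgccgcctgcGGTCCGGGTT
Fall at nt 154 (precursor nt 6902 to 6921): ttccccctccCCCCGCGGGC
Fall at nt 404 (precursor nt 7152 to 7171): gtcccgtgccCGTCGTCGTC
Fall at nt 459 (precursor nt 7207 to 7226): tgcgtgcggtGTGGTGGTGG

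Ratios within a library do not depend on how libraries are scaled. The mean depth of the first 200 nt was 24.0 and 33.1 times that of the rest of ITS2 in nuclear libraries and 9.18 and 7.65 times in cytosolic ones. The log2 ratio was 4.82 ± 0.33 for the former and 3.07 ± 0.19 for the latter (SD, n = 2), and their difference, 1.75, exceeded the replicate spread of each fraction. With the first 100 nt as the start the difference was 0.77, since nt 101 to 200 then counted among the rest. The first 200 nt held 83.2% and 87.3% of the nuclear ITS2 depth and 65.5% and 61.3% of the cytosolic one.

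Against its neighbours ITS2 was also higher in the nucleus, although these ratios also move with the neighbour. As a whole, 5.8S took 0.620% of nuclear and 0.907% of cytosolic depth, and 28S took 63.7% and 72.7%. The share of 18S went the other way, at 34.1% and 26.4%. The log2 ratio of ITS2 over the 100 nt of 5.8S before it was -9.10 ± 0.55 for nuclear and -11.34 ± 0.30 for cytosolic libraries, 2.24 higher in the former. Over the first 100 nt of 28S it was -8.005 ± 0.71 against -9.84 ± 0.44, 1.83 higher, and over all of the precursor before ITS2 it was -8.91 ± 0.23 against -10.23 ± 0.14, 1.32 higher (SD, n = 2). In these 3 ratios the libraries of the fractions did not overlap. By median rather than mean depth the log2 differences were smaller, at 1.61, 1.11 and 0.64 in the same order.

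ITS1, the other internal spacer, which lies between 18S and 5.8S, was the closest comparison. ITS2 was 13.0 and 14.5 times as deep as ITS1 in nuclear libraries and 9.49 and 9.11 times in cytosolic ones, a log2 ratio of 3.78 ± 0.11 against 3.22 ± 0.04 (SD, n = 2). By mean depth the difference, 0.56, was above the replicate spread, but by median depth over positions it turned to -0.095. ITS1 was itself higher in the nucleus, with a mean share of 0.00084% of nuclear and 0.00039% of cytosolic depth. It was thin, with mean depths of 24.7 and 25.2 nuclear and 10.6 and 13.0 cytosolic reads. Its median depths were 17 and 17 against 7 and 9. Each of the 5 ratios had an exact permutation p of 0.333, with and without Benjamini-Hochberg adjustment, the lowest value possible here.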

How the data were processed

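RNA from anti-Flag pull-downs was made into directional libraries, per the labels' protocols. The authors deposited the signal as coverage, the whole number of reads over each position of the rRNA references, per the file headers; the values carry no scaling between libraries. cutadapt 1.5, Bowtie2 2.2.6 and SAMtools are named in the submitters' processing notes; the sources used here do not give their settings, read filters or handling of strand. Ends of the rRNAs came from RefSeq, whose RNA45SN5 record has the length of the precursor in the table, in another version.

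Windows of 100 nt were laid outward from both ends of ITS2. Of 161 windows, 137 reached a mean of 10 reads in 2 or more libraries and were tested on log2(relative depth + 0.00001), about 1.89 to 2.12 reads, with two-sided limma 3.58.1 in R 4.3.3 (eBayes with a trend, Benjamini-Hochberg adjustment over all windows, threshold 0.05). A pseudocount of 0.01 exceeds the depth of most of ITS2 and was kept as an alternative. Regions were fitted without a trend or pseudocount. The fit was tested on simulated data with independent windows, whereas adjacent windows here share reads. Other values used Python 3.11.15; steps added 1 read to each mean and required a depth of 10 on 1 side in each library.

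Every window of ITS2 is reported. The text gives in full the deepest 3 in each fraction, the 3 with the highest and the 3 with the lowest ratio, the first and last, and the 3 steepest rises and falls at least 20 nt apart. The stretch and these choices were made with earlier results of these data known. The ratio to ITS1, the outline of the mound, the runs of positions and the robust variances were added after the data were seen. Depth bears counting error at each position, and reads without molecular identifiers are not independent molecules.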

Additional observations from a re-analysis of the deposited data

How the results depend on the processing

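The count of ITS2 windows higher in the nucleus was 4 of 9 tested, and 0 were lower under each alternative. It was 3 or 4 under the other pseudocounts (0.0001 and 0.01), the other scalings, window medians, no filter or a minimum depth of 50, windows shifted by 50 nt, no variance trend and robust variances. The pseudocount of 0.01 kept the 4 calls but cut their log2 differences from 2.04, 2.20, 0.81 and 1.11 to 0.75, 0.47, 0.045 and 0.030, since it exceeds the depth of most of ITS2. The count was 9 of 17 with windows of 50 nt, where more windows are tested. These include nt 651 to 700, which met the minimum depth only through the nuclear libraries. The share of all tested windows was not computed for the alternatives, so these counts have no background beside them. With 1 library left out, the log2 difference lay between 1.84 and 2.24 at nt 1 to 100 and between 1.97 and 2.44 at nt 101 to 200. A fit with the replicate number as a block left 3 windows, ending the call at nt 201 to 300. The numbers name libraries only, and the deviations of same-numbered libraries had a correlation of -0.035 over 137 windows.

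For ITS2 as a whole the log2 difference of 1.67 became 0.35 without the first 200 nt (adjusted p = 0.209 in limma), 1.49 to 1.84 with 1 library left out, and 1.67 with the replicate block (adjusted p = 0.00162). It stayed past the threshold under the scalings (1.46 to 1.86) and with medians over positions (1.02). Leaving out 1 library moved the log2 difference of the start over the rest between 1.52 and 1.98, of ITS2 over the 100 nt before it between 1.85 and 2.63, over the 100 nt after it between 1.33 and 2.33, over the precursor before it between 1.16 and 1.48, and over ITS1 between 0.48 and 0.64. With medians over positions the ratio to ITS1 turned from 0.56 to -0.095, and the differences over the 100 nt before ITS2, the 100 nt after it and the precursor before it went from 2.24 to 1.61, from 1.83 to 1.11 and from 1.32 to 0.64; the cause was not tested.

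Among the windows that did not pass, nt 301 to 400, nt 401 to 500 and nt 1101 to 1167 changed sign around 0. The windows at nt 601 to 700 and nt 901 to 1000 stayed positive wherever they were tested. They were at 0.0048 and 0.0039 with the pseudocount of 0.01. With scaling to the precursor after ITS2 both were at 0.64 (adjusted p = 0.0593 and 0.0558 in limma). nt 401 to 500 went from 0.05 to -0.16 with the median of ratios, to -0.043 with window medians and lay between -0.33 (without cytosolic replicate 1) and 0.42 (without cytosolic replicate 2) with 1 library left out. nt 1101 to 1167 went from 0.14 to -0.067 with the median of ratios and lay between -0.053 and 0.33 without the same libraries. nt 301 to 400 went from -0.10 to 0.087 with scaling to the precursor after ITS2 and lay between -0.37 and 0.17 without them; the cause was not tested. The median of ratios moved the median of all tested windows by -0.21 and scaling to the precursor after ITS2 by 0.19 on the log2 scale. Depth limits the middle of ITS2, where 3 windows could not be tested.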
